A study of Mus musculus with 2 samples.

Results

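Dppa2, Dppa3, Dppa4 and Dppa5a are 4 genes named for developmental pluripotency association, and their transcripts were compared in mouse embryoid bodies grown with and without FGF10, a secreted fibroblast growth factor. They were taken as the probe sets whose platform annotation gives exactly 1 gene symbol equal to one of these names. That rule found 5 probe sets, 2 for Dppa2 and 1 for each of the others, among 45037 that are not chip controls. All 4 genes were among the 11122 measured genes. The set was chosen with the ratios of these same arrays in view, so its signals and ratios are given as a description and carry no test.

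The embryoid bodies came from CGR8, a mouse embryonic stem cell line of strain 129 cultured without feeder cells in medium with serum and leukemia inhibitory factor, and were formed in hanging drops. The FGF10 group is 1 array from embryoid bodies in differentiation medium with recombinant FGF10 protein at 100 ng/ml. Its control is 1 array from embryoid bodies in differentiation medium with no added agent. Both samples are labelled day 2, and the design text puts RNA collection 24 h after treatment of 2-day bodies, so the labels leave the exact age unclear. Neither group has a replicate, so no test between them was possible, and every ratio describes this pair of arrays. No undifferentiated sample was analysed here, so a change over time as pluripotency is left cannot be read from these data.

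Dppa2 and Dppa4 are related proteins with a SAP domain, a DNA-binding fold. They bind chromatin together in mouse embryonic stem cells and are known as activators of the Dux transcription factor and, through it, of genes of the early cleavage embryo. Dppa3, also called Stella or PGC7, marks primordial germ cells and oocytes and shields DNA in the early embryo from changes in methylation, in part by acting on Uhrf1, which guides the maintenance methyltransferase Dnmt1. Dppa5a, also called Esg1, is an RNA-binding protein with a KH domain that is abundant in mouse embryonic stem cells. The names record a shared expression pattern, not a single protein family.

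All 5 probe sets were lower on the FGF10 array. Values are MAS5 signal, a linear brightness that combines the perfect-match and mismatch probes of a probe set. Ratios are log2 of FGF10 over control, shifted by 0.034 so that the middle kept probe set is at 0. A probe set was kept if the mean of its signals reached 76.35, the middle value of the array without chip controls. In place of a replicate error, each ratio is given with a technical SD. It starts from the difference in log2 ratio between 2 probe sets of the same gene, over the 300 genes nearest in signal. The SD of that difference was divided by the square root of 2, so that the technical SD applies to a ratio and not to a difference. This takes both probe sets as equally noisy, though the second is dimmer. The technical SD covers error between probe sets within this pair of arrays. It covers no error that all probe sets of a gene share, and nothing of the variation between cultures.

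Dppa2, 1 of the SAP-domain pair, had a signal of 1474.4 on the FGF10 array, against 4084.7 on the control array, on its brighter probe set 1453223_s_at. The log2 ratio was -1.50 (technical SD 0.20), or 2.84-fold lower. Its other probe set, 1429654_at, had 1000.2 on the FGF10 array, against 3339.6 on the control array, a log2 ratio of -1.77 (technical SD 0.20) or 3.42-fold lower. Both probe sets thus gave the same direction, and their ratios differed by 0.27. Each technical SD is that of 1 ratio, and a difference between 2 ratios has a larger one, so nothing is read from the 0.27. The _s_at ending marks a probe set that can match more than 1 transcript, and the _at probe set gave the lower ratio.

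Dppa4, the partner of Dppa2, had a signal of 1504.7 on the FGF10 array, against 2875.4 on the control array. Its log2 ratio was -0.97 (technical SD 0.21), which is 1.96-fold lower and just short of 2-fold. Dppa5a, the KH-domain gene, had a signal of 8648.7 on the FGF10 array, against 17188.2 on the control array, a log2 ratio of -1.03 (technical SD 0.16). Dppa5a is so bright that 99.0% of probe sets were dimmer, and ratios on these arrays drifted downward with brightness. The median log2 ratio of the 300 genes nearest in signal was -0.17 for Dppa5a, while for the other 3 genes it lay between -0.059 and -0.049. After loess normalization, which removes such a drift, Dppa5a stood at -0.83, under 2-fold.

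Dppa3, the germ cell and oocyte marker, was the dim member, with a signal of 104.3 on the FGF10 array, against 214.3 on the control array. Its log2 ratio was -1.07 with a technical SD of 0.38, wider than for the other members. The FGF10 signal was 1.37 times the filter and the control signal 2.81 times. Its signals and those of the other members were above the filter on both arrays, so no member was kept through the control array alone. The gene table of assembly GRCm38.p6 lists pseudogenes named after Dppa5a and Dppa3 (Dppa5b, Dppa5c and Dppa3-ps), and whether the probes tell these apart from the genes was not tested.

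**Figure D1:**
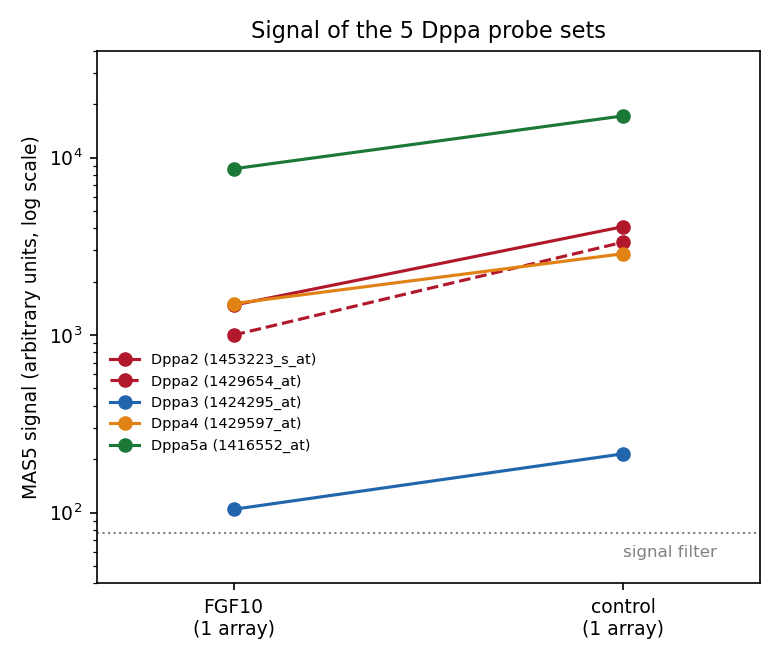
MAS5 signal (log scale) of the 5 Dppa probe sets on the FGF10 array (left) and the control array (right), each point 1 array and each line 1 probe set, with the signal filter of 76.35 dotted. Every line is lower at the FGF10 end, and only Dppa3 lies near the filter.

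At 2-fold, 3 of the 4 genes (Dppa2, Dppa3 and Dppa5a) were lower, and at 1.5-fold all 4 were. Over all measured genes 1.29% were at least 2-fold lower and 4.86% at least 1.5-fold lower, and nothing is read from the contrast with the members, which were picked on these ratios. The number of genes with a ratio as low or lower, the gene itself included, was 36 for Dppa2, 112 for Dppa3, 132 for Dppa5a and 155 for Dppa4. Few of the lower genes were bright. Among the 4230 genes with a mean signal of at least 1000, a limit chosen with earlier results known, 7 (0.165%) were at least 2-fold lower. Dppa2 had the lowest ratio of those 7 and Dppa5a the seventh. Between them stood Id2 (-1.32) and Id1 (-1.09), inhibitors of basic helix-loop-helix factors and targets of BMP signalling, then Ptgr1 (-1.06), Ifi35 (-1.05) and the reproductive homeobox gene Rhox5 (-1.03). Nothing is read from the places of Dppa2 and Dppa5a either, as the members were picked on these ratios. Dppa5a was also short of 2-fold with no centring (-0.99), quantile normalization (-0.84) or loess normalization (-0.83).

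**Figure D2:**
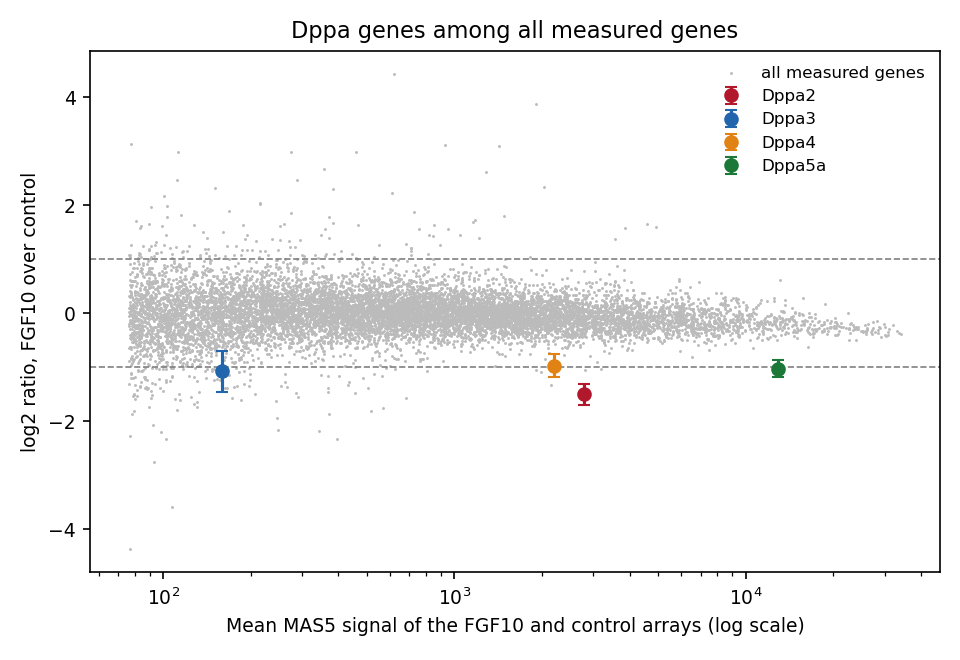
Log2 ratio of FGF10 over control against the mean MAS5 signal (log scale) for 11122 measured genes (grey) and the 4 Dppa genes (coloured, brightest probe set), with bars of 1 technical SD and dashed lines at 2-fold. Dppa2, Dppa4 and Dppa5a lie in the bright range where few genes reach 2-fold, and Dppa3 lies among dim genes whose ratios scatter widely.

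The 4 genes were compared with one another by their ratios, since signals of different probe sets are not on a common scale. Dppa3, Dppa4 and Dppa5a had log2 ratios within 0.10 of each other, less than the technical SD of any of the 3 differences (0.26 to 0.43). Dppa2 was lower than the other 3. Its log2 ratio minus that of Dppa4 was -0.54 (technical SD of the difference 0.28), minus that of Dppa5a -0.48 (technical SD 0.25) and minus that of Dppa3 -0.43 (technical SD also 0.43). The differences from Dppa4 and from Dppa5a were thus 1.88 and 1.90 technical SDs in size, and that from Dppa3 was about the technical SD itself. With the second Dppa2 probe set the difference from Dppa5a was -0.75 and that from Dppa4 -0.81. The SAP-domain partners were thus 2.84-fold lower for Dppa2 and 1.96-fold for Dppa4 on the brightest probe sets. That gap of 1.88 technical SDs is the widest of the 6 pairs, so it is not read as a difference between the partners. With 1 array per group it cannot be said whether they would differ between cultures.

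The genes nearest to each member in the plane of both log2 signals, over 2 arrays, were found as a measure of likeness. For Dppa2 they were Ptgr1 (distance 0.35), Id2 (0.49) and Dppa4 (0.51), so no gene had closely the same pair of signals. Dppa4 had Mrpl33 (0.14), Srpk1 (0.17) and Pigf (0.17), all with ratios closer to 0 than its own (-0.85, -0.73 and -0.73). Around Dppa5a the nearest were Psma5 (0.38), Nop10 (0.39) and Cox6c (0.40), with log2 ratios between -0.50 and -0.47. Dppa3 had close companions in Bcl2l14 (0.016), Rsph1 (0.052) and Uba1y (0.063), among the many dim genes of that range.

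Other genes that were found with the Dppa genes in an early screen for transcripts expressed like Pou5f1 were looked at next. Of 11 such genes 8 had a named probe set and 6 were measured, among them the 4 Dppa genes. Pou5f1, the core pluripotency factor after which the screen was designed, had 8787.2 on the FGF10 array, against 8157.8 on the control array (log2 ratio 0.073, technical SD 0.21). Calcoco2, an autophagy receptor, had 16.8 on the FGF10 array, against 198.2 on the control array. The first of these is under the filter, so the ratio of -3.59 has no known size, and with the signal raised to 76.35 it was -1.41. Pramel6 had 39.5 with FGF10 and 15.3 in the control, and Pramel7 had 9.3 with FGF10 and 23.9 in the control, all below the filter, and Dppa1, Pramel4 and Pramel5 had no named probe set.

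Core pluripotency genes differed little between the arrays by their brightest probe sets. Of 8 core genes measured, 7 were within 1.5-fold and 1 was lower, with a median log2 ratio of 0.038, beside -0.027 for all genes. The median of the Dppa genes was -1.05, and as they were chosen with these ratios in view, nothing is read from its distance to the core median. Sox2 was at -0.0026, Nanog at 0.22, Sall4 at 0.26 and Tdgf1 at 0.0035. The lower one was Utf1, a chromatin protein of pluripotent cells, at -0.73 (technical SD 0.19). The other Sall4 probe set was at 0.67, and with second brightest probe sets 1 core gene was higher and 1 lower. Of 16 measured naive pluripotency genes 6 were at least 1.5-fold lower and 0 higher, where 4.86% of all genes were lower and 5.41% higher. They were Fgf4 (-1.56), the TGF-beta family ligand Gdf3 (-1.16), Rex2 (-1.16), Nr5a2 (-1.01), Zfp42 (-0.71) and Nr0b1 (-0.71), and Nr5a2 was under the filter on the FGF10 array. Klf2, Klf4, Esrrb, Tbx3 and Tfcp2l1, transcription factors of the naive state, lay between -0.28 and -0.079 on their brightest probe sets, within their technical SDs. Other probe sets disagreed, with Klf4 at -0.61 and Klf5 at 0.69 (brightest -0.28), and with second brightest probe sets 7 naive genes were lower and 1 higher.

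Enzymes and partners of DNA methylation, the process on which Dppa3 acts, were mostly within 1.5-fold. Of 11 measured, 1 was lower and 0 higher, with a median of 0.098. Over all genes 4.86% were at least 1.5-fold lower and 5.41% higher, which applies to every count in this paragraph. In lists this short, a count of 1 gene is not read as a result. Another probe set of Uhrf2 was at 0.92, so that 1 gene was higher with second brightest probe sets. Uhrf1 had 4233.6 on the FGF10 array, against 4277.5 on the control array (-0.049), and Dnmt1 had 2445.9 on the FGF10 array, against 2223.2 on the control array (0.10). The lower one was Dnmt3l, the cofactor of de novo methylation, with 252.7 on the FGF10 array, against 550.5 on the control array (-1.16, technical SD 0.32). Its only named probe set is of the _s_at type, and without such probe sets 0 genes of the list were lower. The de novo enzymes were at -0.50 for Dnmt3b and -0.52 for Dnmt3a. Other probe sets disagreed, that of Dnmt3b being at -0.041 and those of Dnmt3a reaching 0.53. Dnmt3b was also brighter than Dppa5a on both arrays, in the range where ratios drifted downward. Dppa3 was also set beside primordial germ cell genes, of which 2 of 8 measured were lower, Ifitm3 (-0.63) and Ifitm1 (-0.62), and Tfap2c was higher (1.66). The other probe set of Kit was at 0.79 (brightest 0.23), so that 2 of these genes were higher with second brightest probe sets. Of 13 measured formative and primed epiblast genes, the state after the naive one, 1 was lower, Pou3f1 (-0.67), and 3 were higher, Cdh2 (2011.9 with FGF10, 980.3 in the control), Zic5 (log2 ratio 0.62) and Zic2 (0.59). With quantile or loess normalization 0 of the 13 were lower and 2 higher.

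Germline genes with promoters that are methylated in somatic cells were mostly lower with FGF10, in a list written with some of their values already known. Of 22 listed, 12 were measured, and 10 of these were lower by 1.5-fold or more and 0 higher, where 4.86% of all genes were lower and 5.41% higher. The median log2 ratio of the 12 was -1.10, which includes 5 genes that passed the filter through the control array alone. Mael, a piRNA pathway gene, had 244.6 on the FGF10 array, against 668.4 on the control array (-1.48, technical SD 0.31). Syce1, a synaptonemal complex gene, had 89.1 on the FGF10 array, against 256.9 on the control array (-1.56, technical SD 0.38). Slc25a31, the germ cell ADP/ATP carrier, was at -1.87, the RNA helicase gene Ddx4 at -0.83 and the X-linked Rhox5 at -1.03, while Sycp3 (-0.10) and Mov10l1 (-0.27) were within 1.5-fold. In 5 of the 10 lower genes the FGF10 signal was under the filter (Dazl, Stk31, Taf7l, Tex12 and Asz1), so these were measured through the control array, where they are high. The filter thus fixed the direction of these 5, and nothing is read from it. With both arrays required to pass the filter 5 genes were lower, and with dim signals raised to it 9 of the 10 were still 1.5-fold lower. With second brightest probe sets 9 were lower, the other Dazl probe set being at -0.47. With no signal filter 15 were lower and 2 higher. Over all genes the number at least 2-fold lower then rose from 144 of 11122 to 1805 of 18193. The 1.5-fold share of all genes in that setting was not computed, so nothing is read from the 15.

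Dux, which Dppa2 and Dppa4 are known to activate, and cleavage-stage genes downstream of it were almost unmeasured. Of 19 listed symbols, among them both Dux and Duxf3, 6 had a named probe set in this table's annotation and 1 was measured. That was Usp17la, a deubiquitinase gene, with 126.7 on the FGF10 array, against 558.7 on the control array (-2.17). Duxf3 (7 with FGF10, 14.2 in the control), Tcstv1 (9.7 with FGF10, 29.8 in the control), Tcstv3 (13.4 with FGF10, 20 in the control), Tdpoz1 (8.8 with FGF10, 40.8 in the control) and Zfp352 (36.7 with FGF10, 43.9 in the control) were below the filter on both arrays, in the range where background can make up the signal. Relatives of Dppa5a and other maternal genes were dim too. Of 8 listed 3 were measured, with Ooep, a KH-domain gene beside Dppa5a, at 288.3 on the FGF10 array, against 552 on the control array (-0.97, technical SD 0.33). Tle6 (-1.05) and Khdc3 (0.59) each had a signal under the filter, and with it raised stood at -0.56 and 0.27.

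**Figure D3:**
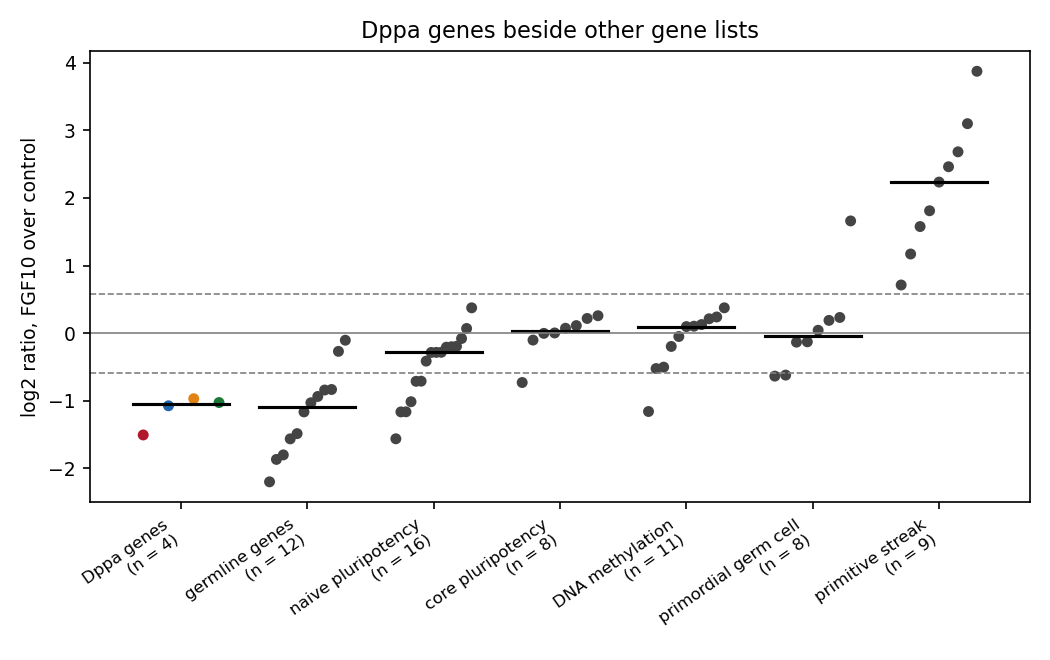
Log2 ratio of FGF10 over control for the Dppa genes (coloured, Dppa2 lowest) and for measured members of 6 gene lists, each point 1 gene by its brightest kept probe set, with black bars at the median and dashed lines at 1.5-fold. The median is -1.05 for the Dppa genes, -1.10 for germline genes, -0.28 for naive, 0.038 for core pluripotency, 0.098 for DNA methylation, -0.042 for primordial germ cell and 2.23 for primitive streak genes. The Dppa genes were chosen with these ratios in view, so nothing is read from their median beside the others. The germline points include 5 genes whose FGF10 signal was under the filter.

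Neighbouring genes were read from the gene table, taking 5 annotated genes on each side of each member. Dppa4 and Dppa2 are consecutive in it, and Morc1, a germ cell chromatin gene, follows Dppa2 with 1 noncoding gene between. Morc1 had 151.9 on the FGF10 array, against 380 on the control array, a log2 ratio of -1.36 (technical SD 0.37). Dppa3 lies between Gdf3 and Nanog, with 4 pseudogenes or small RNA genes on the Nanog side. Gdf3 had 354.6 on the FGF10 array, against 775.6 on the control array (-1.16, technical SD 0.29), whereas Nanog had 7878.5 on the FGF10 array, against 6616.1 on the control array (0.22). Apobec1, a cytidine deaminase gene on the far side of Gdf3, had 48.8 on the FGF10 array, against 124.3 on the control array (-1.38, or -0.74 with the dim signal raised to the filter).

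Next to Dppa5a lies Ooep, given above, followed by Ddx43 (-0.40), Cgas (0.12) and Mto1 (-0.37), all 3 within 1.5-fold. Leaving out the members themselves, the neighbours were 30 distinct genes, of which 8 were measured. Of these, 4 (Morc1, Gdf3, Apobec1 and Ooep) were at least 1.5-fold lower and 0 higher, where 4.86% of all genes were lower. The rest had no named probe set or lay below the filter, among them Trat1 beyond Morc1 (34.9 with FGF10, 5.9 in the control) and Gsta2 beside Dppa5a (20.4 with FGF10, 32.5 in the control).

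**Figure D4:**
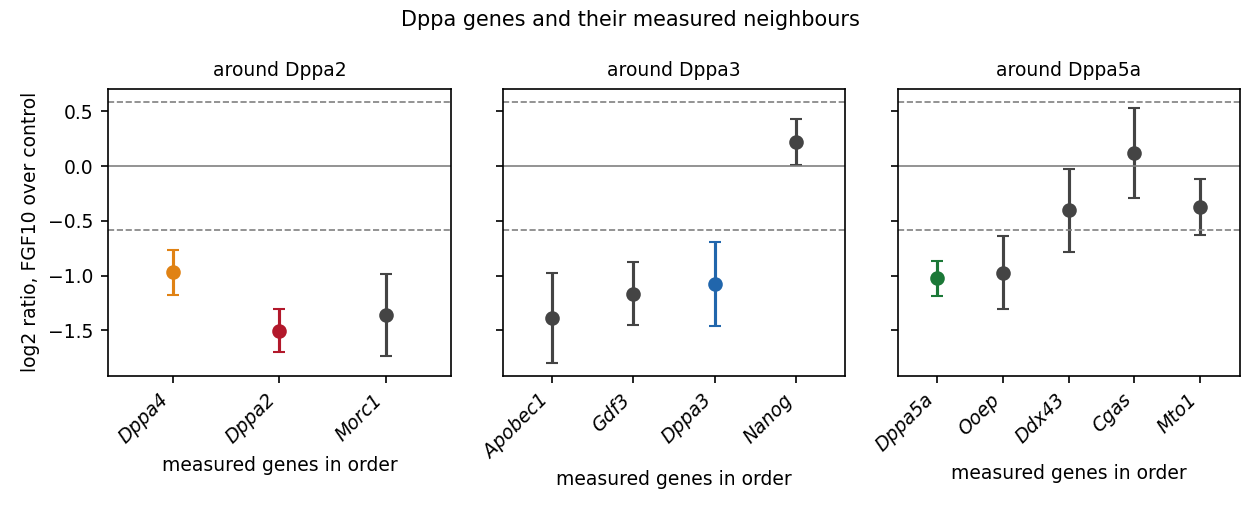
Log2 ratio of FGF10 over control for Dppa genes (coloured) and their measured neighbours (grey) in the order of the gene table, with bars of 1 technical SD and dashed lines at 1.5-fold. Morc1, Gdf3, Apobec1 (drawn with a dim FGF10 signal of 48.8, under the filter) and Ooep lie past 1.5-fold lower, while Nanog, Ddx43, Cgas and Mto1 lie within 1.5-fold.

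Markers of cell types moved between the arrays, and their part in the Dppa ratios was not tested. In bulk RNA, fewer cells of a type and less RNA per cell cannot be told apart. All 7 markers of pluripotent cells were measured, 6 were within 1.5-fold, and their signals summed to 55146 on the FGF10 array, against 60986 on the control array. Dnmt3b is the brightest of them, and without it the other 6 summed to 36129 on the FGF10 array, against 34693 on the control array, so the direction of the sum rests on that gene. The other Dnmt3b probe set had a log2 ratio of -0.041. With second brightest probe sets 1 of these 7 markers was higher, Sall4 (0.67), and 1 was lower. Of 10 primitive streak markers 9 were measured and all 9 were at least 1.5-fold higher, with signals summing to 16786 on the FGF10 array, against 3675 on the control array. All 10 primitive and visceral endoderm markers were measured, with 6 lower and 2 higher and sums of 8601 on the FGF10 array, against 11647 on the control array. With no centring, quantile or loess normalization, or second brightest probe sets, 4 of them were lower and 2 higher. Over all genes 5.41% were at least 1.5-fold higher and 4.86% lower. Of 8 trophoblast markers 3 were measured, 2 of them higher, with sums of 6283 with FGF10 and 2134 in the control. Most of these sums is Eomes, which is also 1 of the streak markers, and without it they were 499.6 with FGF10 and 240.3 in the control. The other higher one was Tfap2c, while Cdx2, Elf5, Hand1, Gata3 and Ascl2 were below the filter. Measured numbers were small too for fibroblast (3 of 8, 1 lower and 1 higher, sums of 514.4 with FGF10 and 542.6 in the control) and neural markers (2 of 6, 1 lower and 0 higher, sums of 608.5 with FGF10 and 553.3 in the control). The lower neural marker was Pax6, whose FGF10 signal of 53.6 is under the filter, and with it raised its log2 ratio was -0.44, within 1.5-fold. The higher fibroblast marker was Pdgfrb, whose control signal of 36.4 is under the filter. The fibroblast genes Col1a1 (8 with FGF10, 9.4 in the control) and Postn (5.3 with FGF10, 4.7 in the control) were near the bottom of the signal range on both arrays.

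The Dppa ratios were recomputed under 11 other settings of centring, normalization, filter and probe set choice. Dppa2 ran from -1.77 to -1.45, Dppa3 from -1.13 to -0.94, Dppa4 from -0.97 to -0.92 and Dppa5a from -1.03 to -0.83, so each gene stayed below 0 under every setting that kept it. Dppa2 had the lowest ratio of the 4 in all of them, and its difference from Dppa3 came closest to 0 with loess normalization (-0.32). The order of the other 3 changed with the setting, and whether Dppa3 and Dppa5a passed 2-fold did too.

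**Figure D5:**
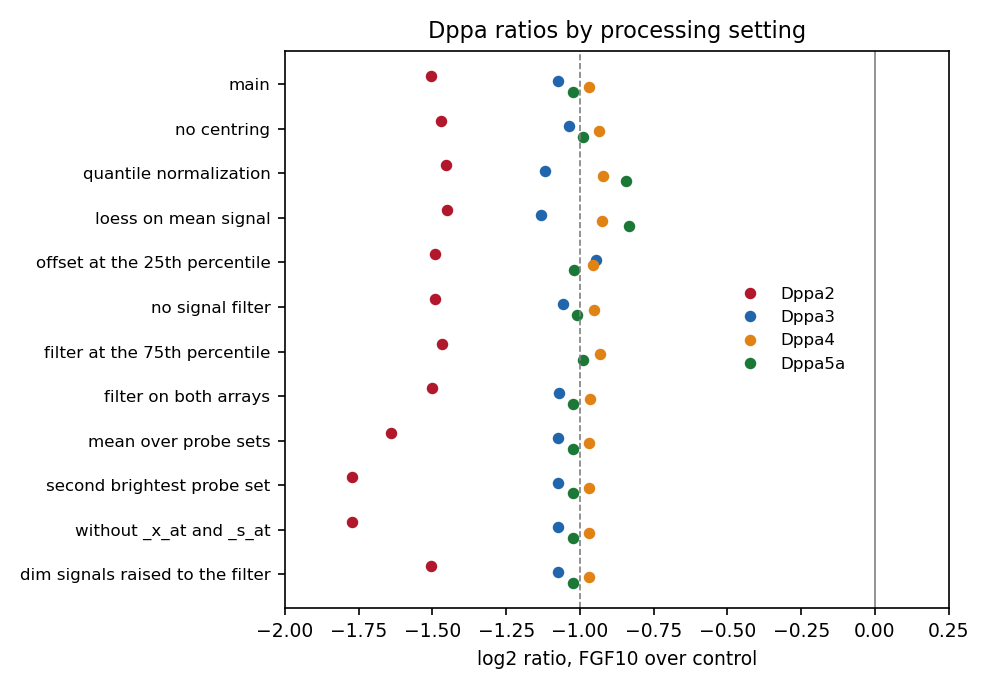
Log2 ratio of FGF10 over control for the 4 Dppa genes (colours) under the reported setting (top) and 11 alternatives, with a dashed line at 2-fold lower. Dppa2 is lowest throughout at -1.77 to -1.45, the other 3 genes cross one another between -1.13 and -0.83, and Dppa3 is absent from the filter at the 75th percentile.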

How the data were processed

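Total RNA from 2 embryoid body samples, 1 per group, was labelled with biotin and hybridised to Affymetrix arrays. The deposited values are intensities on a linear scale, made with MAS5 per the submitters' processing notes, with version and settings not given in the sources used here. The mean of each array without its lowest and highest 2% was 500.003, so ratios show a gene against its own array, not absolute RNA. The number of arrays limits the precision, and no p-value was computed.

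The platform annotation gave 1 gene for 34945 probe sets, several for 932 and none for 9160. Of 45037 probe sets 22524 were kept by the signal filter, and each gene is represented by its brightest one. The technical SD came from 5213 genes with a second probe set. Differences were counted at 2-fold, or 1.5-fold within lists. Computation used Python 3.11.15, pandas 2.3.3 and statsmodels 0.14.6, and the procedure was tested on simulated arrays. The labels name no genome build, so no coordinates are given.

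The members, the lists, the thresholds and the alternatives were chosen with earlier results of these data known. Named genes are all member probe sets, the genes of the screen list, up to 6 members of each other list with the largest ratios (of which the text gives a part), 5 neighbours on each side and the 3 nearest genes in signal. Other genes in the text were named after their values were seen.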

Additional observations from a re-analysis of the deposited data

How the results depend on the processing

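No paired analysis was possible because each group had 1 array, and for the same reason no replicate could be left out. None of the 4 Dppa ratios changed sign under the 11 settings. The differences among Dppa3, Dppa4 and Dppa5a, all smaller than their technical SDs, ran from -0.30 to 0.077 and did. Dppa5a moved to -0.84 with quantile and -0.83 with loess normalization. With the second brightest Dppa2 probe set, or without _x_at and _s_at probe sets, Dppa2 moved to -1.77 and its difference from Dppa5a to -0.75. The members at least 2-fold lower, 3 as reported, were 1 with the filter at the 75th percentile, which leaves Dppa3 out and puts Dppa5a at -0.99, and 0 at 3-fold. They were 2 with no centring, quantile normalization, loess or the offset. Counts over all genes, 144 lower and 147 higher as reported, were 1805 and 1459 with no signal filter, 14 and 42 with the filter at the 75th percentile, 74 and 97 with the filter on both arrays, 540 and 602 at 1.5-fold and 26 and 43 at 3-fold, and with dim signals raised to the filter 87 were lower. Of the 99 measured genes of all lists, 37 were lower and 17 higher as reported at 1.5-fold. These became 14 and 9 with the filter at the 75th percentile, 19 and 11 at 2-fold and 5 and 8 at 3-fold. Changing the threshold or dropping dim genes alters these counts by construction, and the cause of the other moves was not tested. Depth here is signal over background: Dppa3 and many list genes lie near the filter, where a ratio is uncertain by about 0.4 on the log2 scale.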
